A study of Mus musculus with 8 samples.

Results

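The genes described here, 10 in number, act in intracellular sensing and lytic death of mouse cells: the NAIP sensors Naip2, Naip5 and Naip6, the caspases Casp4 and Casp8, the necroptosis genes Ripk1, Ripk3 and Mlkl, and the membrane genes P2rx7 and Ninj1. They were taken by symbol, and all of them are among the 18473 genes of the deposited table. RNA was sequenced from 8 libraries, 4 titled EXO and 4 titled LPS, and no other allele, age or agent is given. The series design names ADSC-Exos as the treatment of macrophages and concerns their polarization. ADSC-Exos usually stands for exosomes of adipose-derived stem cells, and LPS for lipopolysaccharide, a component of the outer membrane of bacteria. The labels do not say whether the EXO libraries also received LPS, nor a dose or a time, and untreated cells are not analysed here.

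Lytic death releases the contents of a cell through its torn membrane. NAIP proteins bind flagellin or secretion system proteins of bacteria and join NLRC4 in an inflammasome that activates caspase-1, while mouse caspase-4 (also called caspase-11) is itself activated by cytosolic lipopolysaccharide and cleaves gasdermin D. Caspase-8 acts downstream of death receptors and restrains necroptosis, in which the kinases RIPK1 and RIPK3 lead to phosphorylation of MLKL and to membrane damage. P2X7 is a channel opened by extracellular ATP whose potassium efflux triggers NLRP3, and NINJ1 ruptures the plasma membrane at the end of several of these routes.

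Of the 10 genes 7 were lower in EXO and the other 3 were not called. Casp4 showed the largest difference of the 10, at 18.5 ± 6.20 FPKM in EXO and 77.5 ± 22.8 FPKM in LPS (SD, n = 4 each), and Mlkl followed at 9.17 ± 1.06 and 24.1 ± 5.01 FPKM. All 3 NAIP genes, Casp8 and Ninj1 were lower as well. Ripk1, Ripk3 and P2rx7 did not pass the test. A gene not called is not shown to be equal in the groups. Under some alternatives Ripk3 was called higher and P2rx7 lower. FPKM values count fragments relative to gene length and library depth. Log2 differences below are the mean log2(FPKM + 1) of EXO minus that of LPS, from limma with Benjamini-Hochberg adjustment over all 9812 genes tested and a threshold of 0.05.

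All 10 genes passed the filter on low values. At that threshold 7 of 10 were lower, where 24.7% of all genes tested were lower, and 0 of 10 were higher, where 33.7% of all genes tested were higher. At an unadjusted limma p under 0.05, 1 of the 10 was higher, where 3571 of all 9812 genes tested were higher. Voom on recovered fragments called 0 of the 10 higher, where it called 3342 of all 9812 higher. In either direction 70.0% of the 10 were called, against 58.4% of all genes tested. The EXO libraries lay wholly below the LPS libraries in 7 of the 10, as in 22.1% of all genes tested, and wholly above in 0 of the 10, as in 29.1%. The median log2 difference was -0.87 over the 10 and 0.09 over all genes tested. The 10 genes were proposed with results of these data known, so these shares describe them and are no independent evidence.

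**Figure D1:**
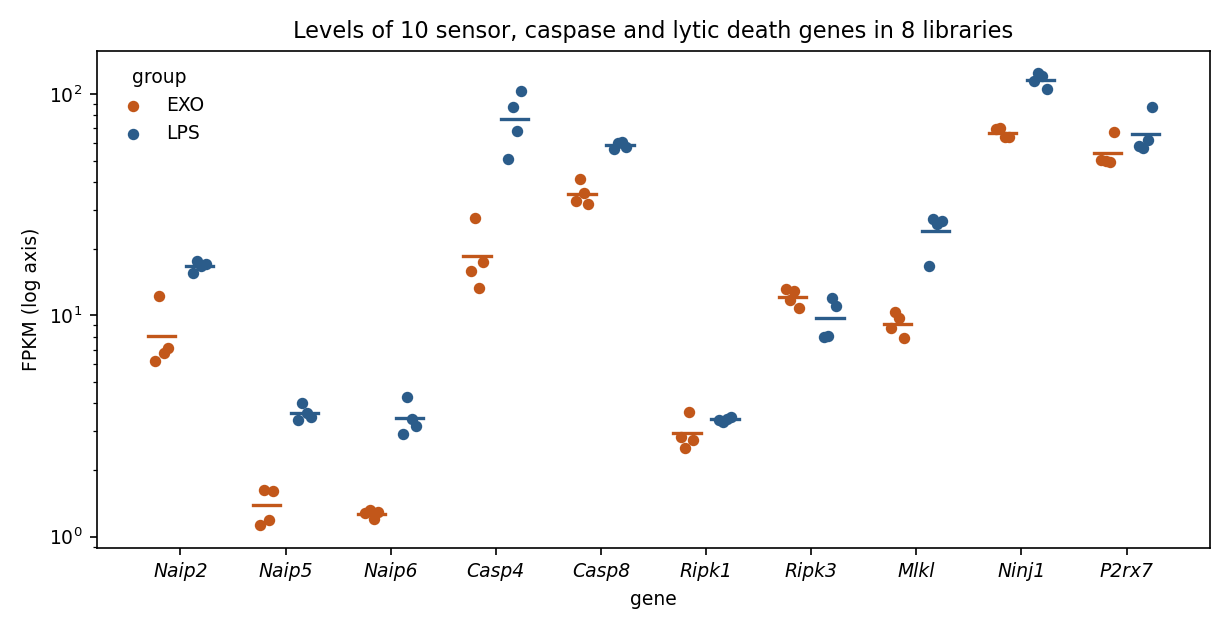
FPKM on a log axis for each gene in the 4 EXO (orange, left) and 4 LPS (blue, right) libraries, with a bar at each group's mean. The groups are separate for the NAIP genes, both caspases, Mlkl and Ninj1, and overlap for Ripk1, Ripk3 and P2rx7.

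The libraries had the profile of macrophages, whereas MLE-12, a lung epithelial line of the mouse, is what the labels name. Of 18 macrophage markers, 17 averaged 1 FPKM or more over the libraries. Of the 13 genes of the general epithelial list only 2 were analysed, Ocln and Elf3, and neither reached that level. These 2 summed to at most 0.0133 FPKM in an EXO library and 0.0233 in an LPS library. The rest of that list was not read. Library totals recovered from the steps of the FPKM values ran from 37104299 to 40674878 fragments. Of the 17 macrophage markers tested, 16 were lower in EXO, with a median of -1.01, and the whole list summed to 6690 to 8290 FPKM per EXO library, against 11800 to 23900 per LPS library. In bulk libraries fewer cells of a type and less RNA per cell cannot be told apart, and the part of the macrophage genes in the results below was not tested. Of the neutrophil, T and NK cell, endothelial and stromal lists, no more than 2 analysed markers in each averaged 1 FPKM or more. Cd3g, Esam and Col1a1 were at 0 in all libraries. Analysed were 7 of 11 neutrophil, 5 of 12 T and NK cell, 7 of 8 endothelial and 5 of 9 stromal markers. The others were not read, and the sums that follow leave them out. The neutrophil list summed to 4.06 to 7.29 FPKM per EXO library and 5.48 to 11.6 per LPS library, the T and NK cell list to 3.15 to 6.4 and 4.45 to 10.3, the endothelial list to 11.4 to 15.7 and 2.52 to 4.31, and the stromal list to 0.399 to 0.605 and 0.444 to 0.632. The endothelial sum was almost all Egfl7, with means of 12.87 FPKM in EXO and 3.03 in LPS. No other analysed marker of that list was above 0.3393 FPKM in any library. The alveolar type 2 list, also epithelial, summed to 45.1 to 55.7 and 67.7 to 104 FPKM over the 5 genes analysed of 10 listed. Of these 5, 4 averaged 1 FPKM or more, Napsa among them with means of 32.5 FPKM in EXO and 57.5 in LPS. Whether epithelial cells were present was not tested.

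Among the sensors, Naip2 was the most abundant of the 3 at each gene's own length. Naip2 (Entrez gene 17948), which in mouse senses the inner rod protein of bacterial type III secretion systems, stood at 6.24, 12.2, 6.73 and 7.14 FPKM in EXO replicates 1 to 4 and at 15.6, 17.6, 16.7 and 17.1 FPKM in LPS replicates 1 to 4. EXO replicate 2 was far above the other 3 EXO libraries and still below every LPS library. This was a log2 difference of -1.01 ± 0.16 (SE; 95% interval from -1.36 to -0.66, limma adjusted p = 0.00013).

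Naip5 and Naip6, both sensors of flagellin in mouse, were lower still in proportion. Naip5 (Entrez gene 17951) stood at 1.13, 1.63, 1.18 and 1.604 FPKM in EXO and at 3.38, 4.03, 3.60 and 3.49 FPKM in LPS. Naip6 (Entrez gene 17952) stood at 1.27, 1.32, 1.21 and 1.29 FPKM in EXO and at 2.92, 4.26, 3.40 and 3.15 FPKM in LPS. Neither gene overlapped between the groups, and the EXO values of Naip6 were the tightest of the family. By mean FPKM Naip5 was 2.62 times and Naip6 2.70 times higher in LPS, and Naip2 2.07 times. The log2 differences were -0.96 for Naip5 (SE 0.11, limma adjusted p = 7.89e-06) and -0.96 for Naip6 (SE 0.11, limma adjusted p = 7.91e-06). Because 1 FPKM is added before the logarithm, these understate the change of genes at such low levels, and with 0.1 added they were -1.34 and -1.35.

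The 3 genes are neighbours on chromosome 13 and paralogs, and how fragments of their shared sequence were assigned is not stated in the labels. In the GENCODE M21 transcripts of build GRCm38, 36.8% of the 50-base windows of Naip5 occur identically in another gene's transcript, as do 21.5% of those of Naip6 and 19.4% of those of Naip2. Of 150-base windows the shares were 8.25%, 1.89% and 0.556%. The individual levels are therefore uncertain, most for Naip5. Their sum does not depend on the split among the 3 if every fragment went to a single gene. It would change if shared fragments were dropped or counted in several genes. The sum also depends on what was assigned to other genes, since 13.8% of the 50-base windows of Naip5 occur in Naip1 and 16.3% in genes other than these 4. That sum was 45.6, 77.6, 47.8 and 52.9 CPM, counts scaled to the library total, in EXO and 115, 138, 125 and 125 CPM in LPS. It averaged 56.0 ± 14.8 CPM in EXO and 126 ± 9.35 in LPS (SD, n = 4 each), 2.25 times higher in LPS, with no overlap. Naip2 made up 65.5% to 76.1% of the fragments in the EXO group and 61.9% to 66.3% in the LPS group, the highest share being that of EXO replicate 2.

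The proximal promoters of Naip2 and Naip5 are alike, which is why they are shown. From the RefSeq promoter table (build GRCm38.p6, windows of 300 bases around each annotated start), a stretch of 134 bases aligned without a gap at 91.8% identity, 123 of 134 bases. Both lie on the minus strand, Naip2 at chr13:100202074-100202207 and Naip5 at chr13:100247295-100247428, and capitals mark the 11 bases that differ.
Naip2: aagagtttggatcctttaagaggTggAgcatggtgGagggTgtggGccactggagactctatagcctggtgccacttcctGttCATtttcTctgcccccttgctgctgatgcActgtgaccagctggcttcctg
Naip5: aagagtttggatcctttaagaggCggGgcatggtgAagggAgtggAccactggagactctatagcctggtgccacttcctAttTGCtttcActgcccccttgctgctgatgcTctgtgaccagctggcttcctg
The RefSeq window of Naip6 shared no identical run longer than 8 bases with that of Naip2 and 7 with that of Naip5. The likeness of the Naip2 and Naip5 windows thus did not extend to the annotated start of Naip6. Whether promoter sequence has a part in the levels of these genes was not tested.

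The remaining NAIP and its partner were also read. Naip1, chosen after its values were seen, was too low to test, between 0.01 and 0.0855 FPKM in EXO libraries and between 0.0141 and 0.142 in LPS libraries. Nlrc4, the adaptor that NAIPs activate, averaged 2.85 ± 0.278 FPKM in EXO and 5.45 ± 0.672 in LPS (log2 difference -0.74 ± 0.11 SE, limma adjusted p = 7.69e-05).

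The inflammatory caspase of the set had the widest span. Casp4 (Entrez gene 12363) stood at 15.8, 27.5, 13.3 and 17.5 FPKM in EXO and at 51.1, 87.6, 68.0 and 103 FPKM in LPS. Both groups spread widely within themselves, and the highest EXO library was still below the lowest LPS library. On the log2 scale the gene differed by -2.01 ± 0.24 (SE; 95% interval from -2.54 to -1.48, limma adjusted p = 3.91e-05), and by mean FPKM the gene was 4.18 times higher in LPS. Between 737 and 1604 fragments per library lay behind the EXO values and between 3093 and 6113 behind the LPS values.

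Casp8 (Entrez gene 12370), the initiator caspase of death receptors, was lower by less. It stood at 32.7, 41.2, 35.6 and 31.8 FPKM in EXO and at 56.5, 59.9, 60.5 and 57.6 FPKM in LPS. The LPS libraries lay close together and all above the EXO libraries. Its log2 difference was -0.72 ± 0.11 (SE; 95% interval from -0.96 to -0.48, limma adjusted p = 8.08e-05). Casp4 was the less abundant of the pair in every EXO library, at 0.375 to 0.667 times Casp8 in FPKM, and stood at 0.903 to 1.80 times Casp8 in LPS libraries.

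Casp4 carried the largest difference, so its promoter window is shown. RefSeq lists overlapping windows for 2 starts of Casp4, and the first, on the plus strand of GRCm38.p6 at chr9:5308599-5308898, reads as follows. Capitals mark a match to a form of the NF-kB site, a motif added after the windows were read.
Casp4: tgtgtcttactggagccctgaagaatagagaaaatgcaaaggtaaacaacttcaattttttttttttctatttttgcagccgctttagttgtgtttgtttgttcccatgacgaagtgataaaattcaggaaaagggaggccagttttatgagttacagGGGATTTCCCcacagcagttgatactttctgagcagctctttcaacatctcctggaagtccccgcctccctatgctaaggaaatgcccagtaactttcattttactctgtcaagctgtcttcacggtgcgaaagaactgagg
The match begins 92 bases before the annotated start. On both strands, 0.0944% of the 32851 RefSeq windows of this length hold the same letters. A match of letters is a description and not a site.

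Of the necroptosis genes, Mlkl alone was called. Mlkl (Entrez gene 74568), the pseudokinase that damages the membrane, stood at 8.76, 10.3, 9.68 and 7.90 FPKM in EXO and at 16.6, 27.3, 25.8 and 26.6 FPKM in LPS. LPS replicate 1 was well below the other 3 LPS libraries and still above every EXO library. The fitted log2 difference was -1.28 ± 0.15 (SE; 95% interval from -1.61 to -0.96, limma adjusted p = 8.32e-06).

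Ripk3 (Entrez gene 56532), the kinase that phosphorylates MLKL, was the only one of the 10 with a higher mean in EXO, and it did not pass the test. It stood at 13.2, 11.7, 12.9 and 10.8 FPKM in EXO and at 7.95, 8.06, 12.0 and 11.04 FPKM in LPS. LPS replicates 1 and 2 were below all EXO libraries, and LPS replicates 3 and 4 were within their range. In limma the log2 difference came to 0.30 ± 0.14 (SE; 95% interval from 0.01 to 0.60, limma adjusted p = 0.0733). Without LPS replicate 3 or LPS replicate 4 it was called higher, at 0.40 (limma adjusted p = 0.0303) and 0.365 (limma adjusted p = 0.0275).

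Mlkl and Ripk3 changed order between the groups. Mlkl stood at 0.665 to 0.884 times Ripk3 in FPKM in the EXO libraries and at 2.09 to 3.39 times Ripk3 in the LPS libraries. The ratio was chosen after the values were seen and is given without a test. A non-coding gene that overlaps Ripk3, Gm32092, reached at most 0.0824 FPKM in an EXO library and 0.0192 in an LPS library.

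Ripk1 (Entrez gene 19766), the kinase at the branch between survival, apoptosis and necroptosis, was not called. It stood at 2.82, 2.52, 3.65 and 2.73 FPKM in EXO and at 3.37, 3.31, 3.40 and 3.46 FPKM in LPS. The LPS libraries differed little from each other, and EXO replicate 3 was above all of them while the other 3 EXO libraries were below. The log2 difference by limma was -0.17 ± 0.11 (SE; 95% interval from -0.41 to 0.07, limma adjusted p = 0.217).

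The low FPKM of Ripk1 rests in part on a long gene model. The FPKM steps imply a length of 16571 bases for Ripk1, where the exons of GENCODE M21 add up to 8344 bases, and 1638 to 2292 fragments per library were assigned to it, more than to Ripk3 in every library. Serpinb6a, which overlaps Ripk1 in RefSeq, averaged 116 ± 9.73 FPKM in EXO and 159.6 ± 21.5 in LPS, and since the strand setting is not given, fragments of the shared stretch cannot be told apart. For Casp4 the implied length was 1489 bases against 3710 in GENCODE M21. Some difference is common in this table: of 14765 genes compared, 27.9% had an implied length within 10% of that sum. In 3.64% it was over 3 times that sum. The order of levels between genes depends on those lengths, and the ratio of EXO to LPS in FPKM within a gene does not. The log2 difference depends on them in part, since 1 FPKM is added before the logarithm, and so does the filter on low values. For Ripk1 the log2 difference was -0.167 with 1 FPKM added and -0.216 with 0.1 added.

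Beside that added motif, 3 motifs were searched in the promoter windows of all 10 genes, and only Ripk1 held matches to them. The motifs, read on both strands, were the core of the interferon-stimulated response element, TTCNNNGAA (a STAT site core) and an NF-kB site. They occur in 3.44%, 8.30% and 0.411% of all windows. The second RefSeq window of Ripk1, on the plus strand of GRCm38.p6 at chr13:34002624-34002923, is shown because it holds the first of these at 1 position and the second at 2, in capitals.
Ripk1: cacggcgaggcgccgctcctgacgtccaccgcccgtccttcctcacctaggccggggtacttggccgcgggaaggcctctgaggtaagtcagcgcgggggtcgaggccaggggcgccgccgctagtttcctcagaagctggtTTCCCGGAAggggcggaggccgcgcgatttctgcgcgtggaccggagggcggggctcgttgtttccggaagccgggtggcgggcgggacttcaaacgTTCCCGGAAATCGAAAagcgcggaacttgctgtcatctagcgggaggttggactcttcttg
The matches begin 108 and 11 bases (TTCCCGGAA) and 5 bases (GAAATCGAAA) before the start, and the last 2 overlap. None of the 7 genes that were lower had a match to these 3 motifs in its windows, which says only that these letters are not there.

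The membrane genes were the most abundant of the 10 in EXO. Ninj1 (Entrez gene 18081), the rupture protein, stood at 69.6, 70.5, 63.9 and 63.9 FPKM in EXO and at 115, 124, 120.4 and 106 FPKM in LPS. Within each group its values were close, and the groups were far apart. This was a log2 difference of -0.78 ± 0.10 (SE; 95% interval from -1.01 to -0.56, limma adjusted p = 2.25e-05), with a mean 1.73 times higher in LPS.

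P2rx7 (Entrez gene 18439), the ATP-gated channel, was not called. It stood at 50.1, 49.6, 49.3 and 67.2 FPKM in EXO and at 58.0, 57.2, 62.3 and 87.4 FPKM in LPS. In both groups replicate 4 stood far above the other 3 libraries, and EXO replicate 4 was above 3 of the 4 LPS libraries. On the log2 scale the gene differed by -0.28 ± 0.15 (SE; 95% interval from -0.60 to 0.04, limma adjusted p = 0.125). Without EXO replicate 4 it was called lower, at -0.39 (limma adjusted p = 0.0457), and likewise after median-of-ratios rescaling, at -0.35 (limma adjusted p = 0.0387), while without LPS replicate 4 it was -0.14 (limma adjusted p = 0.349).

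**Figure D2:**
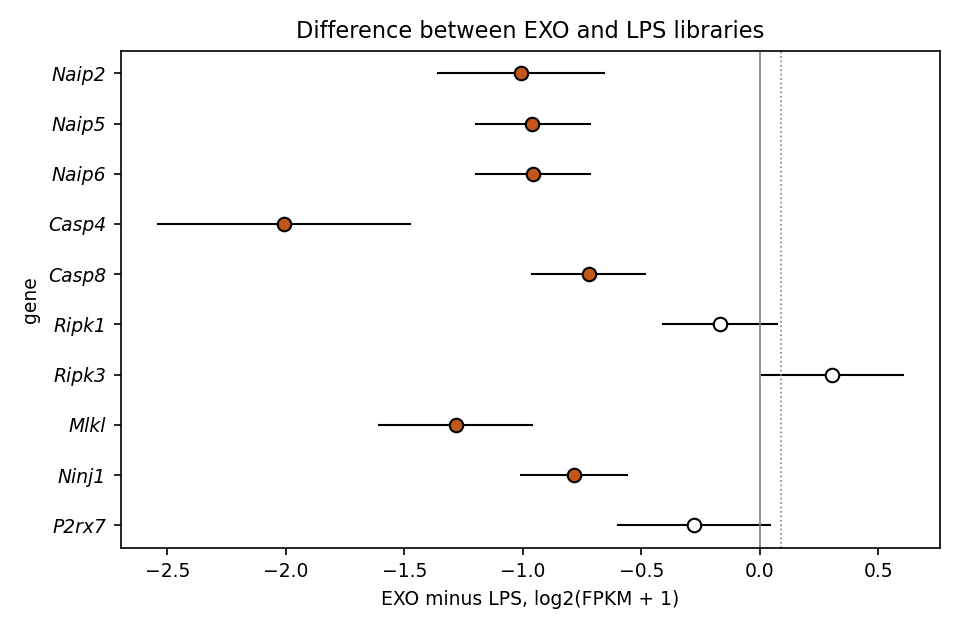
Log2 difference (EXO minus LPS, from FPKM + 1) of each gene, with 95% confidence intervals from limma; filled points have an adjusted p under 0.05 and the dotted line is the median of all genes tested, 0.09. Casp4 lies farthest to the left at -2.01, and the intervals of Ripk1 and P2rx7 include 0.

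By mean level per length the order in EXO was Ninj1, P2rx7, Casp8, Casp4, Ripk3, Mlkl, Naip2, Ripk1, Naip5 and Naip6. The ranges of Ninj1 and P2rx7, of Mlkl and Naip2, and of Naip5 and Naip6 overlapped, and other neighbours did not. In LPS the order was Ninj1, Casp4, P2rx7, Casp8, Mlkl, Naip2, Ripk3, Naip5, Naip6 and Ripk1. There the ranges of Casp4 and P2rx7, of P2rx7 and Casp8, of Mlkl and Naip2, of Naip5 and Naip6 and of Naip6 and Ripk1 overlapped. Casp4 thus stood below Casp8 and P2rx7 in EXO and above their means in LPS, and Ripk3 stood above Mlkl and Naip2 in EXO and below both in LPS.

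Within the groups the 7 lower genes shared some of their extremes. All 7 were highest among the EXO libraries in replicate 2, which is the highest EXO library in 41.7% of the 2422 genes lower in EXO. LPS replicate 1 was the lowest LPS library for 6 of the 7, as it is for 32.7% of those genes, and the exception, Ninj1, was lowest in LPS replicate 4. The lowest EXO library was replicate 1 for 2 of the 7, replicate 3 for 2 and replicate 4 for 3, and the highest LPS library was replicate 2 for 5. For Naip6 the EXO libraries hardly differed, replicate 2 being 0.03 above its group's mean log2(FPKM + 1). After the group means were removed, Pearson's r over the 8 libraries was 0.87 for Naip2 and Casp8 and 0.75 for Naip2 and Casp4. It was 0.69 for Naip2 and Naip5, 0.68 for Casp4 and Mlkl, and -0.76 for Ninj1 and P2rx7. For Naip2, Casp4 and Casp8, EXO replicate 2 was the library farthest from its group's mean, at 0.58, 0.59 and 0.22. How far r rests on that library was not tested. The pairs named are the highest and the lowest of all pairs, chosen after their values were seen. These pairs share their libraries and depth, and no p is given. The 7 genes remained called without EXO replicate 2 and also without EXO replicate 2 and LPS replicate 4 together.

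**Figure D3:**
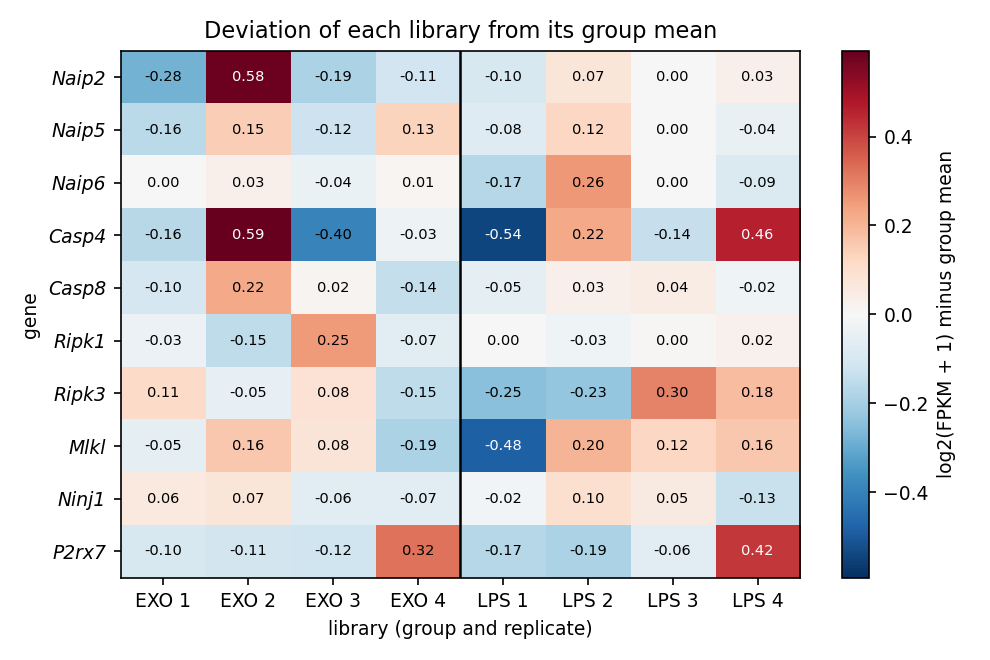
Each library's log2(FPKM + 1) minus its group's mean, for the 10 genes (rows) and the 4 EXO and 4 LPS libraries (columns). EXO replicate 2 is above its group for Naip2 (0.58) and Casp4 (0.59), LPS replicate 1 is below for Casp4 (-0.54) and Mlkl (-0.48), and replicate 4 is high in both groups for P2rx7 (0.32 and 0.42).

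For each called gene, the tested gene with the highest Pearson's r of log2(FPKM + 1) over the 8 libraries was found. These were Rassf4 for Naip2 (r = 0.9917), H2-Q4 for Naip5 (0.9978), Mir22hg for Naip6 (0.9968), Lgals8 for Casp4 (0.9896), Creg1 for Casp8 (0.9937), Dnajb4 for Mlkl (0.9925) and Cyb5a for Ninj1 (0.9983). Each of them was itself lower in EXO, which follows from an r taken over both groups without removing their means. Between 156 (Naip2) and 619 (Naip5) genes had an r over 0.95, so the nearest gene is 1 of many with a like pattern.

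Lists of genes from the same pathways, 6 in number and chosen by role, were read beside the 10. Together 38 of their 79 tested genes were lower and 8 were higher, so 58.2% were called in either direction, against 58.4% of all genes tested. Over all genes tested 24.7% were lower and 33.7% higher, and these shares are the background of each list's counts below. The median log2 difference was -0.21 over the lists and 0.09 over all genes tested. The lists share their libraries with the 10 genes, and no test of a list was made.

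Of 7 tested inflammasome sensors and adaptors 5 were lower, 1 was higher and 1 missed the threshold. The list's median was -0.50. Beside Nlrc4, Aim2, a sensor of cytosolic DNA, averaged 6.30 ± 1.012 FPKM in EXO and 9.57 ± 1.22 in LPS. Nlrp1a, another inflammasome sensor, averaged 1.88 ± 0.311 and 3.06 ± 0.287 FPKM, and Card9, an adaptor of fungal sensing, 15.3 ± 0.867 and 22.5 ± 2.26 FPKM.

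Downstream of them, 3 of 6 tested caspases, gasdermins and released products were lower, 1 was higher and 2 missed the threshold. The list's median was -0.63. Casp1, the protease of the inflammasome, averaged 69.9 ± 16.1 FPKM in EXO and 198 ± 35.8 in LPS (log2 difference -1.49 ± 0.17 SE, limma adjusted p = 7.04e-06). Gsdmd, the pore protein that caspase-1 and caspase-4 cleave, averaged 21.3 ± 3.40 and 47.1 ± 8.32 FPKM (log2 difference -1.11 ± 0.15 SE, limma adjusted p = 2.56e-05). Il18, whose protein is matured by caspase-1, was lower as well, at 3.55 ± 0.690 and 22.6 ± 7.04 FPKM. Hmgb1, a nuclear protein released by lysed cells, was higher, at 84.4 ± 9.03 FPKM in EXO and 38.6 ± 3.84 in LPS (log2 difference 1.11 ± 0.12 SE, limma adjusted p = 3.24e-06). Gsdme, another gasdermin, chosen after its values were seen, was too low to test, at 0.170 ± 0.0330 and 0.222 ± 0.0402 FPKM.

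Around caspase-8, 9 of 14 tested genes were lower, 1 was higher and 4 missed the threshold. The list's median was -0.36. Fas, a death receptor, stood at 4.42, 6.004, 4.52 and 4.61 FPKM in EXO and at 30.1, 33.5, 22.4 and 19.0 FPKM in LPS (log2 difference -2.18 ± 0.16 SE, limma adjusted p = 2.2e-07). Cflar (c-FLIP), which pairs with caspase-8 and holds it in check, averaged 15.2 ± 3.35 and 30.2 ± 2.89 FPKM. Tnfrsf1a, the main TNF receptor, averaged 19.9 ± 2.42 and 34.6 ± 0.722 FPKM, and Apaf1, the scaffold of the apoptosome, 6.31 ± 0.303 and 10.9 ± 0.977 FPKM. Fadd, chosen after its values were seen, the adaptor between Fas and caspase-8, was not called, with a log2 difference of -0.07 (limma adjusted p = 0.676).

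Among inducers and checkpoints of necroptosis, 12 of 28 tested genes were lower, 4 were higher and 12 missed the threshold. The list's median was -0.17. Zbp1, a nucleic acid sensor that engages RIPK3, stood at 0.184, 0, 0.0748 and 0.162 FPKM in EXO and at 9.98, 15.8, 10.4 and 8.09 FPKM in LPS (log2 difference -3.41 ± 0.16 SE, limma adjusted p = 5.57e-09). All EXO values of Zbp1 were below 1 FPKM, so it passed the filter on low values through its LPS libraries alone. The size of its difference depends on the 1 FPKM added. It was -5.83 with 0.1 added and -7.42 by voom on recovered fragments. Tnfaip3 (A20), which limits signalling through ubiquitin, averaged 3.75 ± 1.21 and 13.2 ± 1.005 FPKM. Birc3 (cIAP2), a ubiquitin ligase that acts on RIPK1, averaged 18.7 ± 4.91 and 44.0 ± 0.994 FPKM, and Mapkapk2 (MK2), a kinase that inhibits RIPK1, 208 ± 25.1 and 542 ± 92.8 FPKM. These 4 are the genes of the list with the smallest p, and they do not stand for the list.

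Of 6 tested genes around P2X7, 3 were lower, 0 were higher and 3 missed the threshold. The list's median was -0.69. At an unadjusted limma p under 0.05 again 0 were higher, where 3571 of all 9812 genes tested were higher. By voom on recovered fragments 0 were higher too, where 3342 of all 9812 were higher. P2rx4, a related ATP-gated channel, averaged 10.1 ± 1.22 FPKM in EXO and 26.3 ± 2.90 in LPS (log2 difference -1.30 ± 0.12 SE, limma adjusted p = 1.07e-06), whereas P2rx7 itself was not called. Kcnk6 (TWIK2), a potassium channel, averaged 3.66 ± 0.388 and 8.31 ± 1.13 FPKM, and Ano6, a phospholipid scramblase, 7.15 ± 1.48 and 12.95 ± 1.54 FPKM. Entpd1 (CD39), which degrades extracellular ATP, averaged 1.504 ± 0.797 and 2.75 ± 0.945 FPKM and was just short of the threshold (limma adjusted p = 0.0507), and it was called without EXO replicate 2 (limma adjusted p = 0.0087), without LPS replicate 4 (limma adjusted p = 0.0201), after rescaling (limma adjusted p = 0.0369) and with plain variances (limma adjusted p = 0.0325). Ninj2, the paralog of Ninj1, chosen after its values were seen, reached at most 0.256 FPKM in an EXO library and 0.304 in an LPS library.

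Of 18 tested genes of membrane repair by ESCRT proteins and annexins, 6 were lower, 1 was higher and 11 missed the threshold, so 38.9% were called, against 58.4% of all genes tested. The list's median was -0.16. Anxa5, a calcium-dependent membrane-binding protein, averaged 177 ± 38.0 FPKM in EXO and 455 ± 32.6 in LPS (log2 difference -1.38 ± 0.14 SE, limma adjusted p = 2.74e-06). Chmp1b and Chmp3, ESCRT-III subunits, averaged 23.2 ± 0.577 and 22.5 ± 1.202 FPKM in EXO, against 44.8 ± 4.90 and 32.3 ± 2.51 FPKM in LPS. Anxa2, another annexin, averaged 378 ± 71.0 and 577 ± 45.8 FPKM.

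The genes of these lists that were higher in EXO, named after their values were seen, were 8 with Hmgb1. In the necroptosis list Tab1, a partner of the kinase TAK1, averaged 6.23 ± 1.12 FPKM in EXO and 3.62 ± 0.425 in LPS (log2 difference 0.64, limma adjusted p = 0.000663), and Usp21, a deubiquitinase, 12.8 ± 1.43 and 8.69 ± 0.730 FPKM. Ripk2, the kinase of NOD signalling, and Rbck1 (HOIL-1), a subunit of the linear ubiquitin ligase, were higher by 0.41 and 0.34 on the log2 scale. Pycard (ASC), the adaptor of inflammasomes, averaged 38.97 ± 6.0 FPKM in EXO and 29.3 ± 2.02 in LPS (log2 difference 0.39, limma adjusted p = 0.0152). Casp2, an apoptotic caspase, and Chmp6, an ESCRT-III subunit, were higher by 0.31 and 0.31. Pycard, Casp2 and Chmp6 were not called after median-of-ratios rescaling, nor without EXO replicate 1 or EXO replicate 4. Casp2 was also not called without LPS replicate 3, nor Chmp6 without EXO replicate 3 or LPS replicate 1, 2 or 3.

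**Figure D4:**
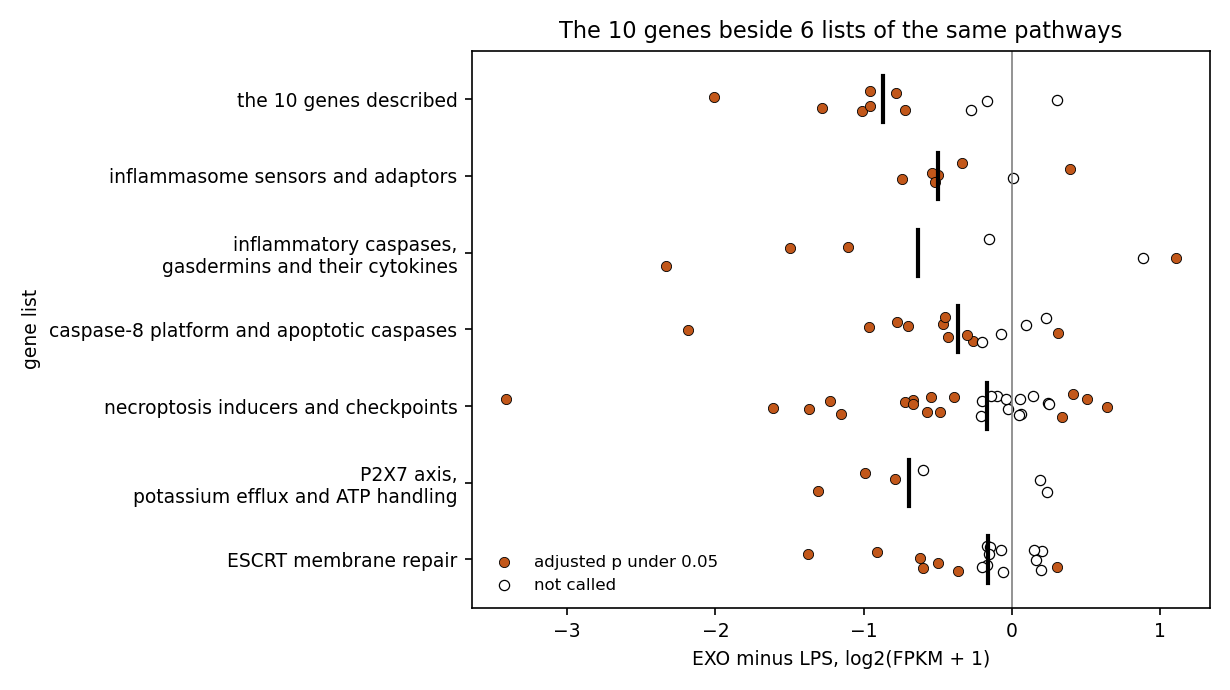
Log2 difference (EXO minus LPS, from FPKM + 1) for the 10 genes and for each tested gene of 6 pathway lists; filled points have a limma adjusted p under 0.05 and black bars are medians. The median of the 10 genes is -0.87 and those of the lists run from -0.69 to -0.16, with Zbp1 (-3.41) farthest to the left and Hmgb1 (1.11) farthest to the right. Zbp1 passed the filter on low values through its LPS libraries alone.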

How the data were processed

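The authors deposited 1 table of FPKM values for 8 libraries. Its header names no unit, and FPKM was inferred from values that sum to between 544225 and 621034 per library. Per the submitters' processing notes HISAT2 and the build GRCm39 were used, and the counting tool, its strand setting and the annotation release are not stated there or in the labels. For all 17645 genes above 0 the FPKM steps gave whole fragments (tolerance 0.005), which served for depth and for voom.

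Genes with at least 1 FPKM in at least 4 libraries (9812) were compared on log2(FPKM + 1) with limma 3.58.1 (R 4.3.3, intensity trend, robust variances, two-sided). The fit was tested on simulated data with the same spread setting for all genes and far fewer changed genes than were called here. That test does not measure the error of the calls in these data. The genes named are the 10, the 4 with the smallest p in each pathway list, and the nearest gene by correlation; others are said to be chosen after their values were seen. The 10 genes and the lists were chosen with earlier results of these data known. The labels do not tell whether replicates came from separate cultures, and p-values rest on a spread among samples that may be technical. Alternatives were another pseudocount, other filters, rescaling, voom, plain variances, a replicate block and leaving out libraries. Promoters are from RefSeq (GRCm38.p6, not the authors' build, used for sequence alone), all 10 genes matched. Alignments used Biopython 1.88.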

Additional observations from a re-analysis of the deposited data

Results flagged for a closer look

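A library was set down here where it stood far from the other 3 of its group, its gap to the nearest passing Dixon's 95% limit for 4 samples. Chance does this in about 1 in 20 groups, and 7 of the 68 groups examined (34 genes in EXO and in LPS) met it. Naip2 reached 12.2 FPKM in EXO replicate 2, above the other EXO libraries. Fas reached 6.004 FPKM in the same library. Mlkl was low, at 16.6 FPKM, in LPS replicate 1. P2rx7 was high in replicate 4 of both groups, at 67.2 FPKM in EXO and 87.4 FPKM in LPS. In LPS replicate 4, Cflar was also high, at 34.6 FPKM, and Chmp3 low, at 28.6 FPKM. The sources of these values were not tested.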

How the results depend on the processing

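Naip2, Naip5, Naip6, Casp4, Casp8, Mlkl and Ninj1 remained lower and called under every alternative that tested them, Casp4 from -2.21 to -1.86 and Casp8 from -0.805 to -0.675. Naip5, Naip6 and Ripk1 have no value at a mean FPKM of at least 5, since they are below it, and the count of lower genes was then 5. Ripk3 ran from 0.22 to 0.40 when 1 library was left out and was called at 0.38 (limma adjusted p = 0.0221) without EXO replicate 2 and LPS replicate 4. P2rx7 ran from -0.39 to -0.14 when 1 library was left out and was called at -0.35 after rescaling. The cause was not tested. The count of the 10 genes higher in EXO was 0 to 1 when 1 library was left out, and 1 with EXO replicate 2 and LPS replicate 4 both removed. With both removed, P2rx7 was at -0.102 (limma adjusted p = 0.499). The pathway genes higher in EXO numbered 8 as reported, 5 after rescaling, 4 to 10 when 1 library was left out, and 11 with EXO replicate 2 and LPS replicate 4 both removed. Without EXO replicate 4 they numbered 4, and without EXO replicate 1 they numbered 5. Those lower numbered 32 to 42 under all alternatives. The deviations of same-numbered libraries of the groups had r of 0.045, 0.17, -0.292 and -0.109. EXO replicate 3 and LPS replicate 4 had an r of 0.352. So few values cannot tell whether the numbers mark pairs. With the replicate block 8 of the 10 genes were lower, P2rx7 being called at -0.28 (limma adjusted p = 0.0484), and over all genes tested 3253 were higher and 2339 lower, against 3310 and 2422 without it. Rescaling moved the median of all genes tested to 0.023, against 0.085 as reported. In EXO libraries Naip5 and Naip6 rest on the fewest fragments of the 10, 254 to 383 and 300 to 346.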
